A study of Mus musculus with 16 samples.

Results

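The genes described here are those of programmed cell death: caspases, the Bcl2 family, inhibitor of apoptosis (IAP) proteins, death receptor proteins and TRAF adaptors. They were taken by name from the platform annotation, as gene symbols starting with Casp, Birc, Bcl2 or Traf, Bcl10, and a list of 20 further names. This gave 37 of the 9030 genes named in that annotation, measured by 65 of the array's 20794 probes. Of the 20 listed names, Bax, Bik, Bbc3, Cycs, Endog, Htra2 and Ripk1 are given to no probe by that annotation. RNA of EMP3 mutant male mice, 17 weeks old, was compared on two-colour arrays with RNA pooled from wild-type males of the same age and tissue. EMP3 is a small membrane protein, and the labels name neither the allele nor the strain. Spleen and thymus were taken from the same 4 mutant mice, each tissue RNA was hybridised on 2 arrays with the dyes exchanged, and there were 16 arrays in all. The pool is 1 control sample per tissue, of 4 mice per the channel labels and 6 per the labelling protocol, so no comparison contains the spread between wild-type mice.

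Apoptosis is run by caspases, proteases that lie inactive in healthy cells. In the intrinsic route, BH3-only proteins such as Bid, Bad and Bcl2l11 (Bim) counter the survival proteins Bcl2, Bcl2l1 (Bcl-xL) and Mcl1, the effectors Bak1 and Bax open the mitochondrial outer membrane, and released cytochrome c assembles Apaf1 and Casp9 into the apoptosome. In the extrinsic route, ligands such as Fasl bind receptors such as Fas, which recruit Fadd and an initiator caspase. IAP proteins restrain caspases or signal with TRAF adaptors toward NF-kB. In thymus and spleen these routes remove developing T cells that fail selection and end immune responses.

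Every value below is a log2 ratio of mutant over pool within 1 tissue, so levels of different genes cannot be compared and the tissues' defining markers cannot be checked by level. The direction, mutant above and pool below the line of the ratio, is likely from the design but stated in no label. Nor do the labels state whether arrays with the mutant in Cy3 had already been turned to that direction: with those arrays turned once more, 0 apoptosis probes and 1 probe in all (0.00497%, as lower) passed in spleen. Over the apoptosis probes the 2 arrays of a mouse correlated between -0.134 and 0.562 for spleen and between -0.956 and 0.158 for thymus. Over all probes the spleen pairs ran from 0.0518 to 0.424, whereas every thymus pair was negative, at -0.440, -0.357 and -0.249 in mice 1, 3 and 4 and -0.922 in mouse 2. Over all probes the 2 arrays of each thymus mouse used thus ran against each other. Between different mice of these 3, thymus arrays correlated at 0.144 to 0.393 with the mutant in the same dye. With it in opposite dyes they correlated at -0.320 to -0.142. The part of this in the thymus counts was not tested. The lowest pair value, -0.922, belongs to mouse 2, whose 2 arrays were near mirror images of each other, and thymus results rest on mice 1, 3 and 4. The 2 probes of Emp3 itself did not pass in either tissue: they averaged 0.20 ± 0.25 and 0.27 ± 0.38 in mutant spleen (SD, n = 4) and -0.04 ± 0.10 and 0.05 ± 0.05 in mutant thymus (SD, n = 3), so they give no check of the labels. Where in the gene those probes lie is not known here.

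In mutant spleen, single probes of genes on either side of apoptosis were lower than in the pool, most of them in 1 stretch of probe IDs. Casp9, Bak1, Fas, Fasl and Apaf1, which promote death, and Birc3, Bcl2l1 and Mcl1, which oppose it, each had a probe past the threshold with a log2 ratio of -0.60 or below, and the lowest, Birc3, was 1.96-fold lower. Apaf1 and Bcl2l1 also had a probe that rose. Of 63 apoptosis probes tested, 18 fell and 6 rose (limma, adjusted p under 0.05). Across all probes tested 25.3% passed, 11.9% as lower and 13.4% as higher, against 28.6% lower and 9.52% higher among the apoptosis probes. Of the 18, 13 lie in a stretch of probe IDs, described below, where 49.3% of other genes' probes were lower too. Elsewhere 11.4% of the apoptosis probes were lower. Fas probe 20543 and Apaf1 probe 20451 lay close to the probes at neighbouring IDs. All 18 lower probes were below 0 in each mouse measured. Their means over mice were also below 0 with the mutant in Cy5 alone and in Cy3 alone, though not every single array was. All 6 higher probes were above 0 in each mouse and in the means of either dye, again not on every array. The median of the apoptosis probes was -0.053, and -0.066, -0.144, 0.000 and -0.048 in mutant mice 1 to 4, while the median over all probes was 0.0445. At gene level 14 of 37 genes had a lower probe, 6 had a higher probe and 19 had none past the threshold. These gene counts have no background, since the same count was not made over all genes. Probes per gene also differed, with 65 for the 37 apoptosis genes and 12771 for 9030 genes in all. Just inside the threshold were Bad probe 20252 at -0.54 and Birc2 probe 5747 at -0.24, with adjusted p of 0.0473 and 0.0489. Just outside it were Bok at 0.28 and Fadd probe 5350 at 0.27, with 0.0513 and 0.0529. Over all probes 5086 passed, and only 2351 without mouse 2 and 2366 without mouse 4. In each of these settings there were 10 lower apoptosis probes and 0 higher ones. The lower probes that passed whichever mouse was left out were Birc3, both of Casp9, Bcl2l12 probe 20474, Bak1 probe 20253, Fasl probe 14, Fas probe 20543, Bcl2l1 probe 7722 and Apaf1 probe 20451. With a term for the unmeasured variance of the pool there were 8 lower and 0 higher, with 5.49% of all probes lower and 2.9% higher (8.39% together). In whole spleen, fewer cells of a type and less RNA per cell cannot be told apart.

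**Figure D1:**
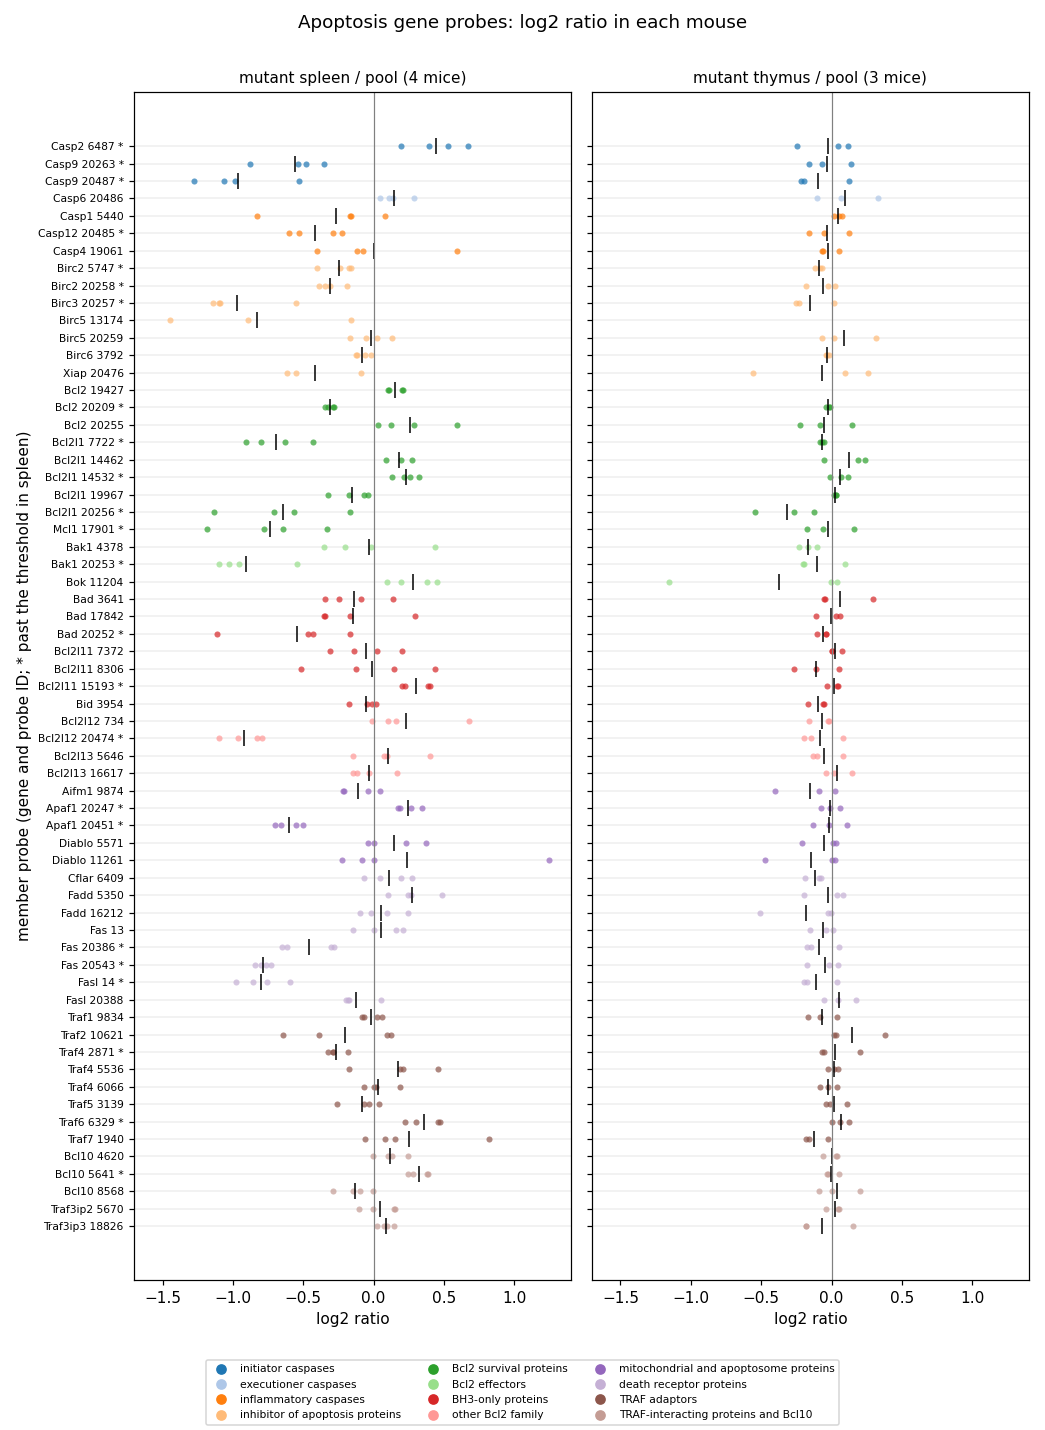
Log2 ratio of mutant over pool (x axis) for every tested apoptosis probe (rows, gene and probe ID), in spleen (left, 4 mice) and thymus (right, 3 mice). Points are mice, black ticks are means, colours are roles, and asterisks mark the 24 probes past the threshold in spleen, whose lower members lie between -1.28 and -0.16 while most thymus points lie near 0.

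On the death receptor side, 3 of 8 tested probes fell and 0 rose, 37.5% lower against 11.9% of all probes. Fasl probe 14, for the ligand that cytotoxic T cells use to kill, read -0.59, -0.98, -0.76 and -0.85 in mutant mice 1 to 4 and averaged -0.80 ± 0.16 (SD, n = 4; adjusted p = 0.00401). All mice lay well below the pool. The other Fasl probe, 20388, read 0.05, -0.17, -0.20 and -0.18 and did not pass (adjusted p = 0.244), with mouse 1 alone above 0. Fas, the receptor of that ligand, had its steadiest probe, 20543, at -0.77, -0.73, -0.84 and -0.80 and a mean of -0.78 ± 0.05 (adjusted p = 0.00401). Those 4 values spanned less than any other Fas or Fasl probe. Fas probe 20386 read -0.28, -0.61, -0.65 and -0.30 (mean -0.46 ± 0.20, adjusted p = 0.0162, or 0.0674 without mouse 2), whereas Fas probe 13 read 0.21, -0.15, 0.00 and 0.16 and straddled 0 (mean 0.06 ± 0.16, adjusted p = 0.645). The adaptor Fadd, which links the receptor to caspases, had means of 0.27 and 0.06 at its probes, and Cflar, which blocks caspase activation at the receptor, had a mean of 0.11. None of these 3 passed.

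Among TRAF adaptors, which carry signals from TNF receptors and Toll-like receptors, 1 of 8 tested probes fell and 1 rose, 25.0% against 25.3% of all probes. Both calls were lost without mouse 2 or without mouse 4. Traf6, a ubiquitin ligase of Toll-like receptor signalling, read 0.22, 0.30, 0.47 and 0.46 in mutant mice 1 to 4, all above 0, with a mean of 0.36 ± 0.12 (SD, n = 4; adjusted p = 0.0166). Traf4 fell at probe 2871 only, with a mean of -0.27 ± 0.06 (adjusted p = 0.0255), against means of 0.17 and 0.03 at its other probes. Traf1 and Traf2, partners of the IAP proteins at TNF receptors, had tested probes at -0.02 and -0.20 that did not pass, and so did Traf5 at -0.08 and Traf7 at 0.25. Bcl10, which connects antigen receptors of lymphocytes to NF-kB, rose at probe 5641, where the mice read 0.24, 0.39, 0.28 and 0.38 (mean 0.32 ± 0.07, adjusted p = 0.0158). Its other probes averaged 0.12 and -0.13 and did not pass, and neither did Traf3ip2 at 0.05 or Traf3ip3 at 0.09.

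The IAP proteins gave the lowest apoptosis probe in spleen. Of their 7 tested probes 3 fell, 0 rose and all had means below 0, with 42.9% lower against 11.9% of all probes. Birc3 (cIAP2), a ubiquitin ligase of TNF receptor complexes and a known NF-kB target, read -0.55, -1.14, -1.10 and -1.09 in mutant mice 1 to 4. Mice 2 to 4 lay close together and mouse 1 stood higher, and on the 8 single arrays the value ran between -1.35 and -0.50. The mean was -0.97 ± 0.28 (SD, n = 4; adjusted p = 0.00424). Birc2 (cIAP1), its paralog and neighbour on chromosome 9, fell at both of its probes: probe 20258 averaged -0.31 ± 0.09 (adjusted p = 0.0203) and probe 5747 averaged -0.24 ± 0.11 (adjusted p = 0.0489). Without mouse 2 or mouse 4 neither Birc2 probe passed (adjusted p = 0.0800 to 0.140), and probe 5747 passed with all 4 mice only. Xiap, which binds caspases directly, read -0.55, -0.09 and -0.62 in the 3 mice measured and did not pass (mean -0.42 ± 0.29, adjusted p = 0.0702). Birc5 (survivin), which also serves cell division, had means of -0.83 ± 0.65 over 3 mice for probe 13174 and -0.02 ± 0.13 over 4 mice for probe 20259. Neither passed. Probe 13174 averaged -2.66 on Cy5 arrays alone and 0.99 on Cy3 arrays alone, so its mean joins dye readings of opposite sign. Birc6 was at -0.08.

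Birc3 and Birc2 are neighbouring paralogs whose tested probes all passed as lower with all 4 mice, Birc2 with the reservation above, and their upstream sequences are shown, as RefSeq gives them for GRCm38.p6. Promoter entries were found for 36 of the 37 genes. Each line is 250 bases before an annotated start, 5′ to 3′ on the minus strand, in the order of the Birc3 start at chr9:7873171-7873420, and Birc2 starts at chr9:7837058-7837307 and chr9:7836807-7837056. Capitals mark GC boxes (GGGCGG on either strand).
Birc3: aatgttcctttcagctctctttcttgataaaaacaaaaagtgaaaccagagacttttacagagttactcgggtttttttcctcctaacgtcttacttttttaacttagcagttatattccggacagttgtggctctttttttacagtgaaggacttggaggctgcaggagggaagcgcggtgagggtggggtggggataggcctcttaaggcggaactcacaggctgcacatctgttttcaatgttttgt
Birc2, first start: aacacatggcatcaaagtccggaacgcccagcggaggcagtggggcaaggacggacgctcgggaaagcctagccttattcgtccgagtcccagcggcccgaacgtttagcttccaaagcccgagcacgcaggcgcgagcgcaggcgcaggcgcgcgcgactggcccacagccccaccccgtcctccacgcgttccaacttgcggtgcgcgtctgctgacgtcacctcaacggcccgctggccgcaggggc
Birc2, second start: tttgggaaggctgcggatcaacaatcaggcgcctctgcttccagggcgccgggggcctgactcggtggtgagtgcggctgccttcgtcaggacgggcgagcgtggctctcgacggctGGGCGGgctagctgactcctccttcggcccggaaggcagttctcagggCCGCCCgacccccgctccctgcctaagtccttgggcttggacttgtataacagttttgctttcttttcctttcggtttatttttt
The second Birc2 window holds 2 GC boxes, and the Birc3 window and the first Birc2 window hold 0. Over 32851 promoters of the same source, 32.7% of windows hold a GC box. TATAAA, on either strand, is in 0 of the 3 windows and in 12.4% of all, and a match to the NF-kB consensus is in 0 of the 3 and in 3.9% of all. Birc3 is the least GC-rich of the 3 windows, with 43.6% G or C against 68.4% and 61.2% for Birc2.

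The Bcl2 family moved in both directions. Of 9 tested probes of the survival proteins 4 fell and 1 rose, 55.6% against 25.3% of all probes. Mcl1 probe 17901, for a short-lived protein that many lymphocytes need, read -0.33, -1.19, -0.78 and -0.64 in mutant mice 1 to 4 (mean -0.73 ± 0.35, SD, n = 4; adjusted p = 0.0143); its other probe was measured in too few mice. Without mouse 4 the adjusted p was 0.0505. Bcl2 had 3 probes with different readings. Probe 20209 was tight at -0.32, -0.34, -0.28 and -0.29 and fell (mean -0.31 ± 0.03, adjusted p = 0.0143), though not without mouse 2 or mouse 4 (adjusted p = 0.0662 and 0.0614). Probe 20255 read 0.29, 0.03, 0.60 and 0.13, and probe 19427 read 0.20, 0.10, 0.21 and 0.11, so both were above 0 in every mouse, and neither passed (adjusted p = 0.119 and 0.115). Bcl2 thus had no single direction over its probes.

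Bcl2l1, a survival protein of immature thymocytes and erythroblasts, had 5 tested probes that spread over 0.92 log2 units. Probe 7722 read -0.43, -0.91, -0.80 and -0.63 (mean -0.69 ± 0.21, adjusted p = 0.00563) and probe 20256 read -0.17, -1.13, -0.71 and -0.57 (mean -0.64 ± 0.40, adjusted p = 0.0279). Probe 20256 did not pass without mouse 2, mouse 3 or mouse 4 (adjusted p = 0.0677 to 0.0817). Probe 14532 rose instead, at 0.13, 0.21, 0.32 and 0.26 (mean 0.23 ± 0.08, adjusted p = 0.0455), but not without mouse 2, mouse 3 or mouse 4 (adjusted p = 0.118 to 0.148). No mouse overlapped between the lower pair and this probe. The other probes did not pass: 14462 read 0.09, 0.19 and 0.27 in 3 mice, and 19967 read -0.32, -0.17, -0.07 and -0.04.

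Of the effectors, Bak1 probe 20253 read -0.55, -1.09, -0.96 and -1.03 in mutant mice 1 to 4 and fell by 0.91 on the log2 scale (SD 0.25, n = 4; adjusted p = 0.00419). The other Bak1 probe, 4378, read -0.35, -0.02, 0.43 and -0.20, on both sides of 0 (adjusted p = 0.872). Bok, a relative of Bak1, averaged 0.28 and did not pass. Of 7 BH3-only probes 1 fell and 1 rose, 28.6% against 25.3% of all probes. Bad, which binds Bcl2l1, fell at probe 20252, where mouse 1 at -1.11 lay far from the others at -0.17 to -0.47. That value of mouse 1 joins 0.054 with the mutant in Cy5 and -2.275 with it in Cy3. The remaining Bad probes were both at -0.14. Bcl2l11 (Bim), needed for deletion of self-reactive thymocytes, rose at probe 15193 with 0.39, 0.40, 0.22 and 0.20 (mean 0.30 ± 0.10, adjusted p = 0.0245), and its remaining probes, at -0.06 and -0.01, did not pass. Bid, which links death receptors to mitochondria, was at -0.05. Bcl2l12 probe 20474 was among the lowest of all, at -0.79, -1.09, -0.82 and -0.97 (mean -0.92 ± 0.14, adjusted p = 0.00401), and Bcl2l12 probe 734, at 0.10, 0.16, 0.68 and -0.01, did not pass. Bcl2l13, a mitochondrial outer-membrane protein, had means of 0.11 and -0.03.

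Casp9, the initiator caspase of the apoptosome, fell at both of its probes. Probe 20487 read -0.53, -1.28, -0.99 and -1.06 in mutant mice 1 to 4 (mean -0.96 ± 0.32, SD, n = 4; adjusted p = 0.00511) and probe 20263 read -0.54, -0.88, -0.35 and -0.48 (mean -0.56 ± 0.22, adjusted p = 0.0111). All 8 values lay below the pool. Apaf1, the scaffold on which Casp9 is activated, split: probe 20451 read -0.50, -0.66, -0.70 and -0.55 and fell (mean -0.60 ± 0.09, adjusted p = 0.00409), while probe 20247 read 0.19, 0.34, 0.27 and 0.17 and rose (mean 0.24 ± 0.08, adjusted p = 0.0379). Probe 20247 did not pass whichever mouse was left out (adjusted p = 0.0512 to 0.140). Casp2, an initiator linked to DNA damage, was the highest apoptosis probe, with 0.20, 0.53, 0.67 and 0.39 (mean 0.45 ± 0.20, adjusted p = 0.0184). The executioner Casp6 was at 0.14 and did not pass. Of the inflammatory caspases, Casp12 fell (mean -0.41 ± 0.18, adjusted p = 0.0197), but not without mouse 2 or mouse 4 (adjusted p = 0.0752 and 0.0823), and it lay 0.19 above probes at neighbouring IDs. Casp1, which matures interleukins, and Casp4 were at -0.27 and 0.00 and did not pass. Diablo, which frees caspases from IAP proteins, was at 0.14 and 0.24, and Aifm1, a mitochondrial oxidoreductase, at -0.11; none of these passed.

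The lower apoptosis probes were not spread evenly over the array's probe IDs, which run from 1 to 20794 in the deposited table. The longest run of apoptosis probes with gaps of at most 150 IDs, a stretch picked out after the values had been seen, covers IDs 20209 to 20543. It holds 1.61% of the IDs and 19 of the 65 apoptosis probes (29.2%). Within it 13 apoptosis probes fell and 1 rose of 19, with a median of -0.46. Elsewhere 5 fell and 5 rose of 44, which is 22.7%, with a median of 0.018, and among the other probes elsewhere 24.7% passed, with a median of 0.048. Probes of other genes in the stretch were low as well: 151 fell and 26 rose of 306 (57.8%), with a median of -0.37 and, in mutant mice 1 to 4, medians of -0.32, -0.41, -0.38 and -0.30. In the 251 IDs after the stretch, at the end of the table, 157 fell and 12 rose of 242, with a median of -0.54. The low spleen ratios were not even over the stretch. In ID blocks overlapping it, starting at 20201, 20301, 20401 and 20501, medians of all probes were -0.13, -0.33, -0.42 and -0.67. Near the lower apoptosis probes at IDs 20209 to 20263, other genes' probes within 10 IDs had medians of only -0.03 to -0.12. Near those at IDs 20386 to 20543 the medians were -0.28 to -0.63. Low ratios were thus shared with other genes' probes mainly in the later part. The pooled median of -0.37 is not the local background at the earlier IDs. What the IDs stand for on the slide is not given in the sources used here, and 83% of the probes in the stretch have a gene symbol against 61.4% of all.

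**Figure D2:**
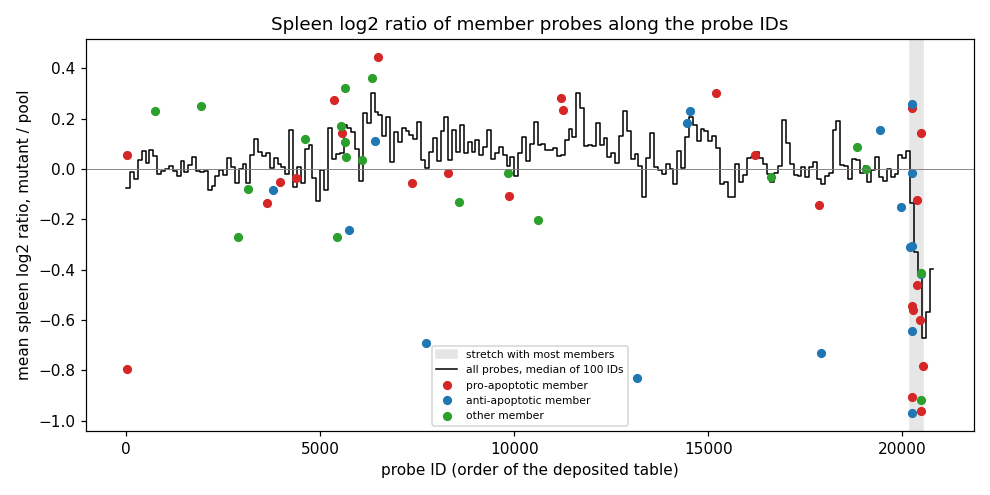
Mean spleen log2 ratio of mutant over pool (y axis) of each tested apoptosis probe against its probe ID (x axis), with the median of all probes in each 100 IDs as a black line and the stretch of IDs 20209 to 20543 shaded. The line stays near 0 over most of the table and drops at its end. It falls from -0.13 in the block starting at ID 20201 to -0.67 in the block starting at ID 20501. The shaded stretch holds 13 of the 18 lower apoptosis probes.

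Set against other genes' probes within 10 IDs on each side, the apoptosis probes followed their neighbours in part. Over 63 probes, which share arrays and mice, Pearson's r was 0.54 and Spearman's rho 0.50, given as a description. In the stretch 12 of 19 apoptosis probes lay below their neighbours' median. So did 12 of the 13 lower ones, but these were picked for low values, so that count is not a separate result. Birc3 and Bak1 probe 20253 lay farthest below, by 0.91 and 0.80 log2 units, where the neighbours were at -0.06 and -0.11. Fas probe 20543 and Apaf1 probe 20451 lay within 0.15 and 0.02 of neighbours that were themselves at -0.63 and -0.58. Casp6, beside Casp12 in the table, stood 0.75 above neighbours at -0.61. Its values of 0.11, 0.04, 0.29 and 0.14 in mutant mice 1 to 4 were all above 0, so the stretch was not low at every probe. Outside the stretch, Bcl2l1 probe 7722 and Mcl1 probe 17901 lay 0.64 below their neighbours and Fasl probe 14 lay 0.54 below. Birc5 probe 13174, whose dye means differed in sign, lay 0.90 below.

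For a further fit, the median of all other probes within 10 IDs on each side was subtracted on each array. Unlike above, these neighbours included other apoptosis probes. After this subtraction 8 of 63 apoptosis probes fell and 5 rose, close to the share of all probes. Of all probes 18.1% passed, 10.6% lower and 7.48% higher. The 8 were all among the 18: Birc3, Casp9 probe 20487, Bcl2l12 probe 20474, Bak1 probe 20253, Fasl probe 14, Mcl1 probe 17901, Bcl2l1 probe 7722 and Birc2 probe 5747. Fas probe 20543 was at -0.09 (adjusted p = 0.508) and Apaf1 probe 20451 at -0.09 (adjusted p = 0.445) after it. Of the 6 higher probes Apaf1 probe 20247 alone passed again, joined by Casp6, Fas probe 13 and Bcl2 probes 19427 and 20255, which had not passed before. Birc3 had a mean of -0.78 after the subtraction and Bak1 probe 20253 one of -0.74.

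**Figure D3:**
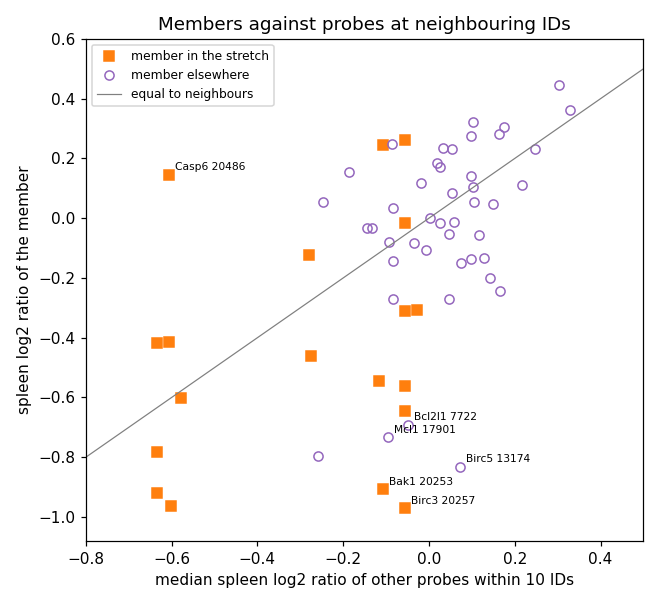
Spleen log2 ratio of each tested apoptosis probe (y axis) against the median spleen log2 ratio of other genes' probes within 10 IDs (x axis), with squares for the stretch of IDs 20209 to 20543, circles for probes elsewhere and a line of equality. Named points differ from their neighbours by more than 0.6, with Birc3 and Bak1 far below the line and Casp6 far above it.

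Probes annotated to the same gene often disagreed. Of 17 genes with at least 2 tested probes, Apaf1 and Bcl2l1 had probes past the threshold in both directions, and Birc2 and Casp9 had every tested probe past it in 1 direction. These counts are with all 4 mice, and the higher probes of Apaf1 and Bcl2l1 did not pass without mouse 2, mouse 3 or mouse 4. The widest gap was 1.15 log2 units, between the probes of Bcl2l12, and those of Bak1, Bcl2l1, Apaf1, Fas and Birc5 were 0.82 to 0.92 apart. The closest pairs were those of Birc2, 0.06 apart, and Diablo, 0.09 apart. In 9 genes 1 or more probes lay in the stretch and others outside it, and in 6 of these the lowest probe was in the stretch. Fasl, Bcl2l1 and Birc5 were the exceptions, with their lowest probes at IDs 14, 7722 and 13174. For Birc5, that place and the gap between its probes rest on a probe whose dye means differed in sign. Casp9, lower at each probe, has no probe outside the stretch. With probes averaged per gene, 10 of the 37 apoptosis genes fell and 3 rose, where 25.3% of 8836 genes passed, 12.4% lower and 12.9% higher.

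**Figure D4:**
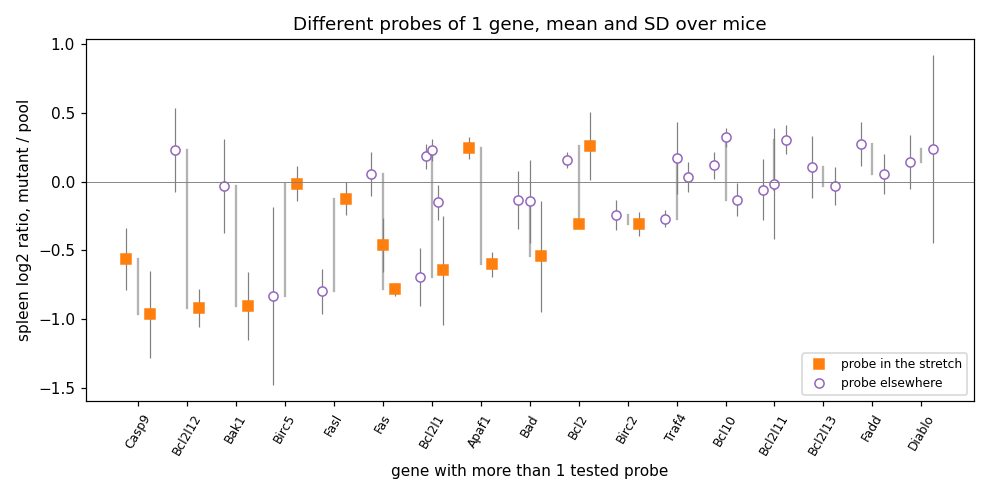
Mean spleen log2 ratio of mutant over pool (y axis) of each tested probe of the 17 genes with more than 1 tested probe (x axis, lowest gene first). Thin bars are the SD over mice, thick grey lines span the means of a gene's probes, squares are probes of the stretch and circles probes elsewhere, and the lines are longest for Bcl2l12, Bcl2l1 and Bak1.

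In spleen, lower calls were found among death-promoting and among death-opposing genes, and most of either kind lay in the stretch. Here 8 pro-apoptotic probes fell and 3 rose of 26, with a median of -0.055, and 7 anti-apoptotic probes fell and 1 rose of 17, with a median of -0.244. Within mutant mice 1 to 4 the pro-apoptotic median exceeded the anti-apoptotic one by 0.102, 0.0165, 0.155 and 0.022, and for the means over mice the gap was 0.189. The gap was 0.027 after the neighbours' median had been subtracted. Against 11.9% lower and 13.4% higher over all probes, the pro-apoptotic probes had 7 lower and 1 higher of 10 inside the stretch, where 57.8% of other genes' probes passed, and 1 lower and 2 higher of 16 outside it. The anti-apoptotic probes had 4 lower and 0 higher of 7 inside and 3 lower and 1 higher of 10 outside. Inside the stretch the order of the medians was the other way, with medians of -0.552 for 10 pro-apoptotic and -0.310 for 7 anti-apoptotic probes. Outside it the medians were 0.020 for 16 and -0.116 for 10. In thymus the pro-apoptotic median was -0.058 and the anti-apoptotic one -0.055, and the gap in mice 1, 3 and 4 was 0.0355, -0.003 and 0.0355.

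In mutant thymus no apoptosis gene passed the test. None of the 61 probes tested was past the threshold (limma, smallest adjusted p = 0.866), nor was any of 20130 probes in all (0%), and at an unadjusted p under 0.05 there were 2 apoptosis probes and 725 probes in all. Over the apoptosis probes the SD between mice had a median of 0.16 in spleen and 0.11 in thymus. The median of the apoptosis probes was -0.030, and 0.0365, -0.0405 and -0.0315 in mutant mice 1, 3 and 4, and that of all probes was 0.0045. The probes with the smallest p below 0 were Bcl2l1 probe 20256, Bak1 probe 4378, Cflar and Traf7. Bcl2l1 probe 20256 read -0.13, -0.55 and -0.27 in mutant mice 1, 3 and 4, and Bak1 probe 4378 read -0.23, -0.17 and -0.10. Cflar read -0.19, -0.08 and -0.09, and Traf7 read -0.18, -0.02 and -0.16. All 4 were below 0 in each mouse. Above 0 the smallest p belonged to Bcl2l1 probe 14462 at 0.24, 0.19 and -0.06, Traf2 at 0.38, 0.03 and 0.02, Traf6 at 0.13, 0.06 and 0.00, and Bcl2l1 probe 14532 at 0.12, 0.07 and -0.01. For Traf2, mouse 1 supplied most of the mean. Over all 61 probes, 17 had the same sign in the 3 mice, 12 of them below 0.

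Of the 18 apoptosis probes that were lower in spleen, 17 had thymus means below 0, and of the 6 higher ones 3 had means above 0. Means below 0 were common in thymus whatever the spleen call, at 42 of all 61 apoptosis probes and 16 of the 19 in the stretch, against 9512 of 20130 probes in all. These thymus means were small: Birc3 read 0.02, -0.23 and -0.25 in mutant mice 1, 3 and 4 and averaged -0.15 ± 0.15, Casp9 probe 20487 averaged -0.10 ± 0.19 and Fasl probe 14 averaged -0.11 ± 0.13 (SD, n = 3 each). Mouse 1 was the one above 0 at each of these probes. Over the 19 apoptosis probes of the stretch, 6 were below 0 in thymus of mouse 1, 18 in mouse 3 and 13 in mouse 4. Other genes' probes of the stretch had thymus medians of 0.036, -0.093 and -0.068 in the same mice.

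The difference between the tissues, spleen minus thymus, was tested in a fit of both. Of 61 apoptosis probes 11 were lower in spleen and 1, Bcl10 probe 5641, was higher, against 13.9% of all probes, 8.04% lower and 5.91% higher. The smallest p belonged to Fas probe 20543, where spleen minus thymus was -0.74 with an SE of 0.08 (adjusted p = 0.00463). Bcl2l12 probe 20474 followed at -0.84 with an SE of 0.11 (adjusted p = 0.00494), then Apaf1 probe 20451 at -0.59 with an SE of 0.09 (adjusted p = 0.00774) and Fasl probe 14 at -0.69 with an SE of 0.11 (adjusted p = 0.00844). Birc3, Bak1 probe 20253, both Casp9 probes, Bcl2l1 probe 7722, Bcl2 probe 20209 and Mcl1 probe 17901 were lower too, by 0.29 to 0.87 log2 units. Of these 12 probes 8 lie in the stretch, where 107 of 301 tested probes of other genes were also lower in spleen. With the mouse as a block, since the same animals gave both tissues, 6 apoptosis probes passed, and without mouse 3 or without mouse 4 there were 0. The share of all probes that passed in these fits is not given here, so these counts have no background.

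The wider pathway passed at about the share of all probes. A list of 54 further genes covered death receptor, NF-kB, mitochondrial and granule killing pathways, and 31 of them had a probe. The granule genes Gzmb and Prf1 had none. Of the 44 probes 4 fell and 7 rose in spleen, 9.09% lower and 15.9% higher against 11.9% and 13.4% of all probes. The median of the 44 was -0.036. Ikbkb, the kinase that frees NF-kB, rose at probe 5735 with 0.41, 0.56, 0.49 and 0.55 in mutant mice 1 to 4, and Tnfaip3 (A20), an inhibitor of NF-kB, rose to a mean of 0.48 ± 0.13 although it lies in the stretch at ID 20384. Ripk3, the kinase of necroptosis, moved in opposite directions at its probes: probe 20697, after the stretch, averaged -0.84 ± 0.20, and probe 19301 averaged 0.49 ± 0.07. Relb, an NF-kB subunit, and Tnfrsf21, death receptor DR6, fell to means of -0.48 ± 0.12 and -0.38 ± 0.11 (SD, n = 4 for each). All of these passed, with adjusted p of 0.00409 for Ripk3 probe 20697 and 0.0127 for Tnfrsf21 as the smallest and largest of the 6.

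Marker lists of cell types in spleen passed at 28.6% to 31.2% for T cells, neutrophils, erythroid cells and stroma and at 50% for macrophages, against 25.3% of all probes. B cell markers had 0 of 4 probes past the threshold, all above 0 with a median of 0.12. T cell markers, whose cells carry Fasl, had 2 lower and 2 higher of 14 with a median of -0.02, and macrophage markers 2 and 2 of 8. Erythroid markers had 4 lower and 1 higher of 16 with a median of -0.09, endothelial and stromal markers 4 lower and 0 higher of 13 with a median of -0.12, and neutrophil markers 3 lower and 1 higher of 14 with a median of 0.05. Fat markers had 1 lower and 0 higher of 6, cortical thymocyte markers 0 lower and 1 higher of 3, and exocrine pancreas markers 0 past the threshold of 2. Outside the stretch and the IDs after it, the endothelial and stromal list had 2 lower of 9 and the T cell list 1 lower and 2 higher of 11. The part of these shifts in the apoptosis ratios was not tested.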

How the data were processed

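The deposited values are log ratios per probe and array, read here as log2 ratios. cDNA from 20 µg of total RNA carried Cy3 or Cy5, per the labels' protocols. The sources used here give no scanner, background correction or normalization, and without intensities the depth behind a value is unknown, so the number of arrays limits precision. Values above 10 in size, a single constant on each array, were treated as placeholders and set to missing. The sample labels (spleen and thymus) were followed where the title has brain.

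The 2 arrays of a mouse were averaged as 1 replicate, where both had a value, and a probe was tested with at least 3 mice. Thymus mouse 2 was left out, since 83.7% of the sums of its 2 arrays lay within 0.01 of their median, against 1.33% to 6.08% in other pairs. Each tissue was fitted alone with limma 3.58.1 in R 4.3.3, because the tissues differ in spread, and the mean ratio was tested against 0 with a two-sided moderated statistic and Benjamini-Hochberg adjustment over all probes at 0.05. The difference used a fit with a mean per tissue. Tissues are paired by mouse, as the labels give the same animals for both, and deviations of the same mouse correlated at -0.05, -0.01 and -0.09 (mice 1, 3 and 4). The p-values cover the spread between mutant mice only.

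Gene symbols came from the platform annotation, with 1 symbol for 12771 probes and none for 8023. All 37 genes were found in RefSeq (GRCm38.p6) under the same symbol. The genes, their roles and the marker and pathway lists were chosen with earlier results of these data known. Values per mouse are given for the 10 probes with the largest mean in size in each direction past the threshold in spleen, the 4 with the smallest p in each direction in thymus and for the difference, and every probe of the core genes Bcl2, Bak1, Casp9, Fas, Fasl, Xiap and Apaf1 or of a gene so named. Other pathway genes were named for the 3 smallest p in each direction. Alternatives changed the dye orientation, the fit, the centring, the neighbours' subtraction, the fold tested, the averaging of probes and the mice.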

Additional observations from a re-analysis of the deposited data

Results flagged for a closer look

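In spleen, mouse 1 stood apart from the other mutant mice at 3 probes by Dixon's criterion, which chance meets in about 1 in 20 groups. In mouse 1 Birc3 read -0.554, Fasl probe 20388 read 0.053 and Diablo probe 11261 read 1.25.

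The ratio differed between spleen and thymus, by limma's test of the difference, at 12 probes. Spleen minus thymus was -0.868 for Casp9 probe 20487 and -0.531 for Casp9 probe 20263. It was -0.835 for Bcl2l12 probe 20474, -0.815 for Birc3, -0.805 for Bak1 probe 20253 and -0.735 for Fas probe 20543. It was -0.707 for Mcl1 probe 17901, -0.687 for Fasl probe 14, -0.624 for Bcl2l1 probe 7722, -0.587 for Apaf1 probe 20451 and -0.288 for Bcl2 probe 20209. Bcl10 probe 5641 alone was higher in spleen, by 0.323.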

How the results depend on the processing

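The 18 lower and 6 higher apoptosis probes in spleen became 8 and 0 with the pool's variance added, 0 and 0 with the Cy3 arrays turned, 8 and 0 when a change beyond 1.2-fold was required, and 10 and 3 genes with probes averaged. With the median of 10 neighbouring IDs on each side removed they were 8 and 5, and with 50 they were 8 and 3. Of all probes 3644 passed with 10 removed and 4009 with 50. Leaving out a mouse gave 10 to 17 lower and 0 to 4 higher. Over all probes, 5086 passed, and 7646 with both tissues in 1 fit, 1689 with the pool's variance, 1 with the Cy3 arrays turned, 887 in the 1.2-fold test, 2235 genes with probes averaged and 2351 to 4867 without 1 mouse. The spleen median was 0.024 with the Cy3 arrays turned and 0.018 without the probes of the stretch, an alternative added after the data were seen, which left 5 lower probes. The thymus median was 0.056 with the Cy3 arrays turned, 0.039 on Cy5 arrays alone and -0.0965 on Cy3 arrays alone. For spleen minus thymus, where 12 passed, the mouse as a replicate block gave 6, the pool's variance 2, the Cy3 arrays turned 0, neighbours removed 7, gene means 4, thymus mouse 2 kept 20, the stretch left out 4 and leaving out a mouse 0 to 11. The pro-apoptotic minus anti-apoptotic gap of 0.189 in spleen was -0.031 with the Cy3 arrays turned, 0.027 and 0.047 with 10 and 50 neighbours removed, 0.014 on Cy3 arrays alone and 0.069 to 0.213 without 1 mouse. In thymus it was -0.0895 with the Cy3 arrays turned, -0.029 with neighbours removed, -0.107 on Cy5 and 0.051 on Cy3 arrays alone, -0.049 without the stretch and -0.033 to -0.0075 without 1 mouse. With the Cy3 arrays turned the sign changed, among probes past the threshold in spleen, for Birc3 (0.082), Bcl2l12 probe 20474 (0.105), Bcl2l1 probe 7722 (0.035), Casp9 probe 20263 (0.29), Bad probe 20252 (0.355), Birc2 probes 5747 (0.205) and 20258 (0.193), Traf4 probe 2871 (0.0758), Casp12 (0.0165) and Bcl2l11 probe 15193 (-0.023). With 10 neighbours removed it changed for Bcl2l1 probe 14532 (-0.035) and Casp12 (0.182), and with 50 for Casp12 (0.178). The causes of these shifts were not tested.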
